A study of Mus musculus with 6 samples.

Results

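Tlr7 and Tlr13 encode receptors of RNA that sit in endosomes, and they are 2 of the 2195 genes in the deposited expression table of mouse colons with and without epithelial Gab1. They were taken by gene name, Tlr7 (ENSMUSG00000044583) and Tlr13 (ENSMUSG00000033777), with earlier results of these data known. Every listed gene had passed the authors' own unadjusted p under 0.05 for the group difference. The experiment asked how the loss of Gab1, an adaptor protein of growth factor and cytokine receptors, in intestinal epithelial cells bears on gene expression in the inflamed colon. The 6 RNA-Seq libraries came from PBS-flushed colons, 3 from Gab1IEC KO mice and 3 from Gab1fl/fl littermates, the latter labelled WT, all aged 8 to 10 weeks. Both groups carried floxed Gab1 alleles and both drank 3% dextran sodium sulfate (DSS), a detergent that injures the colonic epithelium, for 7 days. In the KO mice a Cre driven by the Villin promoter removed Gab1 from epithelial cells only, so other cells of the tissue kept the gene. No colon without DSS was analysed here. The labels do not say whether each library came from 1 mouse, and the p-values given measure the spread between these libraries.

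Toll-like receptors detect molecules of microbes or of damaged cells. Tlr7 binds single-stranded RNA rich in guanosine and uridine and is known from plasmacytoid dendritic cells, B cells and macrophages, whereas Tlr13, which mice have and humans lack, recognizes a stretch of bacterial 23S ribosomal RNA and is known from macrophages and dendritic cells. Both are escorted from the endoplasmic reticulum by Unc93b1, are cut by proteases in endosomes, and signal through the adaptor Myd88 to NF-kB and interferon regulatory factors.

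On the GRCm38 build Tlr13 lies on chromosome X from 106143204 to 106160493 on the plus strand, and Tlr7 lies on chromosome X from 167304929 to 167330558 on the minus strand. In the GENCODE M21 annotation each main transcript has 3 exons, and a single exon holds nearly all of the protein: 3147 of 3150 coding bases in Tlr7 and 2937 of 2973 in Tlr13. Neither gene overlaps another annotated gene. Tlr8, the closest relative of Tlr7, lies beside it on the same strand, with 40599 bases and 0 annotated genes between them. The transcripts of Tlr7 and Tlr8 aligned over 473 bases at 66.2% identity with no identical run longer than 13 bases, and Tlr13 aligned to no other toll-like receptor. Tlr13 shared identical runs of up to 28 bases with transcripts of other genes.

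The promoter of Tlr13 is shown because the receptor was the most abundant of its family in the table, and that of Tlr8 because this gene neighbours Tlr7. Sequences are those of RefSeq on GRCm38.p6, and no entry for Tlr7 was used. Both stretches end before the start of the gene in GENCODE M21. They were searched on both strands for the letters GAGGAA (PU.1, a myeloid transcription factor), GAAANNGAA (interferon-stimulated response element), TTCNNNGAA (the site of STAT factors), GGGNNTTTC (NF-kB), TGANTCA (AP-1) and TTGCGCAA (C/EBP). Capitals mark the matches.
Tlr13 (chrX:106143025-106143203, plus strand): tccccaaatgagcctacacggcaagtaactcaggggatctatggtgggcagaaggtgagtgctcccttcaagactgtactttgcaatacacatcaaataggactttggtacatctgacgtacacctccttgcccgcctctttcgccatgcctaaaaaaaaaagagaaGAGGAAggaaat
Tlr8 (chrX:167264380-167264439, minus strand): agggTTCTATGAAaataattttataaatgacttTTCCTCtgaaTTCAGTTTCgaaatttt
The whole Tlr13 window held 1 match, the PU.1 letters at position -83 from the RefSeq start, which 28.3% of 32851 promoter windows of the same length also held. The Tlr8 window held the STAT letters at -106, the PU.1 letters at -77 on the other strand and the response element letters at -67 on the other strand. The STAT letters occurred in 8.3% of all windows and the response element letters in 8.56%. The NF-kB, AP-1 and C/EBP letters, found in 4.36%, 7.81% and 0.183% of all windows, were in neither. A match of letters does not show that a factor binds there.

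Tlr13 and Tlr7 were both higher in the Gab1IEC KO colons, Tlr13 by 2.36-fold and Tlr7 by 1.83-fold in the group means. Values are normalized counts, that is reads of a gene divided by a size factor of the library, and 1 read was worth between 0.912 and 1.06 of them. Listing required that the authors' unadjusted p for the same comparison be under 0.05, so a difference between the groups was a condition for being listed. Tests of that difference therefore describe its size against the spread and are not independent of the listing. In tissue libraries fewer cells of a type and less RNA per cell cannot be told apart.

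Tlr13 had 186, 209 and 152 normalized counts in WT replicates 1 to 3 and 335, 435 and 519 in KO replicates 1 to 3. Every KO library lay above every WT library, and the lowest KO value was well clear of the highest WT value. The means were 182 ± 28.4 (SD, n = 3) in WT and 430 ± 92.0 (SD, n = 3) in KO colons. On log2 of the normalized count plus 1, limma gave Tlr13 a log2 fold change of 1.22 (standard error 0.29) and an adjusted p of 0.392 with Benjamini-Hochberg over 16716 genes, the number in the authors' own adjustment. DESeq2, run on the reads recovered from the values, gave Tlr13 a log2 fold change of 1.24 and an adjusted p of 0.0240, and edgeR gave an adjusted p of 0.548. With TMM factors in edgeR the log2 fold change of Tlr13 was 0.66, with an adjusted p of 0.856.

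Tlr7 had 104, 137 and 110 normalized counts in WT replicates 1 to 3 and 193, 258 and 193 in KO replicates 1 to 3. Again no KO library reached down to a WT library. The means were 117 ± 17.7 (SD, n = 3) in WT and 215 ± 37.6 (SD, n = 3) in KO colons. The log2 fold change of Tlr7 by limma was 0.86 (standard error 0.30), with an unadjusted p of 0.0222 and an adjusted p of 0.574. DESeq2 and edgeR gave adjusted p-values of 0.256 and 0.586 for Tlr7. The unadjusted limma p of Tlr7 was no longer under 0.05 without WT replicate 1 (log2 fold change 0.79), WT replicate 3 (0.82) or KO replicate 2 (0.73). With TMM factors in edgeR the log2 fold change of Tlr7 was 0.31, also not under that threshold.

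Permuting the 6 libraries exactly, two-sided, gave p = 0.1 for each receptor, the lowest that 3 against 3 allows. Limma called 0 genes of the table at an adjusted p under 0.05 (0.0% of 2195), and the lowest adjusted p was 0.384. At an unadjusted p under 0.05 limma had 1207 genes and edgeR, which also called 0 at the adjusted p, had 1204, while DESeq2 had 1405 and called 117. The genes higher in KO at an unadjusted limma p under 0.05, to which both receptors belong, made up 40.0% of the table. Of the 1207 genes 879 were higher in KO. EdgeR had 894 higher of 1204 with the deposited size factors, and with TMM factors, which moved the median log2 fold change by -0.58, it had 282 higher and 643 lower. Those with every KO library above every WT library made up 43.0%, and those higher in KO at an adjusted DESeq2 p under 0.05, which included Tlr13 and not Tlr7, made up 4.56%. By limma's p Tlr13 stood 137th and Tlr7 645th among the 2195 genes. By log2 fold change they stood 527th and 974th, beside a median of 0.79 over all listed genes.

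**Figure D1:**
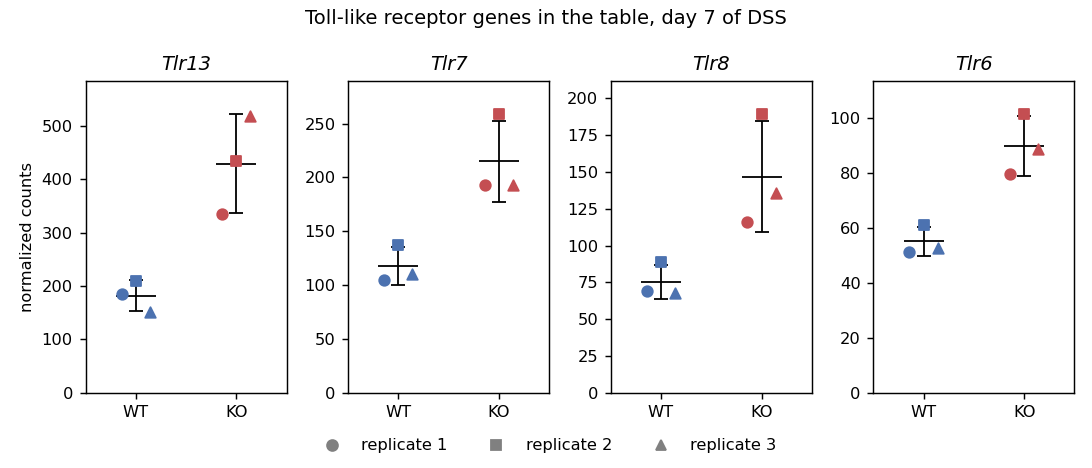
Normalized counts (vertical axes, starting at 0) of the listed toll-like receptors in each of 3 WT and 3 KO libraries; points are libraries and bars are group means with SD. All KO points of Tlr13 (335 to 519) and of Tlr7 (193 to 258) lie above all WT points (152 to 209 and 104 to 137).

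The receptors were counted from modest numbers of reads. Tlr13 rested on 185, 205 and 159 reads in WT and 316, 426 and 569 in KO replicates 1 to 3, and Tlr7 rested on 104, 135 and 115 in WT and 182, 253 and 212 in KO. The exact 95% Poisson interval of the lowest KO value of Tlr7, 166 to 223 normalized counts, lay above that of the highest WT value, 115 to 163. For Tlr13 the corresponding intervals were 299 to 374 and 181 to 239. Such intervals cover counting error only, and PCR copies are not independent molecules.

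The libraries of a group differed by more than counting alone gives. The SD between KO libraries was 4.46 times the counting SD for Tlr13 and 2.57 times for Tlr7, and in WT it was 2.11 and 1.64 times. The highest KO library exceeded the lowest by 1.55-fold for Tlr13 and by 1.34-fold for Tlr7. Relative to their mean level, the receptors varied by 15.6% (Tlr13) and 15.1% (Tlr7) among WT libraries and by 21.4% and 17.5% among KO libraries.

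Tlr13 and Tlr7 did not peak in the same KO library. KO replicate 3 was highest for Tlr13, at 1.52 above the WT mean on the log2 scale, followed by 1.26 in replicate 2 and 0.89 in replicate 1. For Tlr7 replicate 2 was highest, at 1.14, while replicates 1 and 3 stood at 0.72 and 0.73. Among the 1536 genes of the table that were higher in KO, 951 had their highest KO value in replicate 3 and 177 in replicate 2. The log2 ratio of Tlr13 to Tlr7 within a library, which no scaling of the library can move, was 0.82, 0.60 and 0.46 in WT and 0.79, 0.75 and 1.42 in KO replicates 1 to 3. Its mean was 0.63 ± 0.18 (SD, n = 3) in WT and 0.99 ± 0.38 (SD, n = 3) in KO. The difference of 0.36 was within the spread, with p = 0.3 in the exact two-sided permutation test and 0.45 after adjustment over 3 ratios. Without KO replicate 3 the difference was 0.14.

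Of the 12 mouse toll-like receptors, 4 were listed: Tlr13, Tlr7, Tlr8 and Tlr6. All 4 were higher in KO colons, as were 1536 of all 2195 listed genes. The 4 receptors were also higher with TMM factors, by log2 fold changes of 0.66, 0.31, 0.41 and 0.14. Tlr8, an endosomal RNA receptor like Tlr7, had 69.2, 88.6 and 68.0 normalized counts in WT and 116, 189 and 136 in KO replicates 1 to 3 (log2 fold change 0.94, standard error 0.34, limma adjusted p = 0.603). Tlr6, which pairs with Tlr2 at the cell surface to detect bacterial lipopeptides, had 51.2, 61.1 and 52.7 in WT and 79.6, 101 and 88.5 in KO (log2 fold change 0.69, standard error 0.33, limma adjusted p = 0.734). The groups did not overlap for Tlr8 or for Tlr6. The value of Tlr6 is uncertain, since its transcript shares an identical run of 229 bases with that of Tlr1 and reads from there could be split between them. The other 8 receptors were not listed, among them Tlr9, the endosomal receptor of unmethylated CpG DNA, and Tlr3, the endosomal receptor of double-stranded RNA. Unlisted genes did not reach the authors' listing threshold or were not tested, and their levels are not known here.

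Per kilobase of gene length, Tlr13 was the most abundant of the listed receptors, at 42.3 ± 6.59 (SD, n = 3) normalized counts per kb in WT and 99.9 ± 21.4 (SD, n = 3) in KO. Tlr7 followed with 28.7 ± 4.33 and 52.7 ± 9.22, and Tlr6 was last with 14.8 ± 1.43 and 24.1 ± 2.91 (SD, n = 3 in each group). Between them Tlr8 ranged from 19.0 to 24.7 in WT and from 32.2 to 52.7 in KO. This order held in 6 of 6 libraries. Neighbours in the order had ranges that did not overlap within a group, with the exception of Tlr7 and Tlr8 in KO colons, where the lowest Tlr7 level per kb (47.3) lay below the highest Tlr8 level (52.7).

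All 4 receptors were highest in replicate 2 among the WT libraries. Among the KO libraries Tlr7, Tlr8 and Tlr6 were highest in replicate 2 and Tlr13 in replicate 3. Of the 1536 genes higher in KO, 45 were highest in replicate 2 of both groups. Within a library the log2 ratio of Tlr8 to Tlr7 differed between the groups by 0.07 (exact permutation p = 0.5, adjusted 0.5) and that of Tlr6 to Tlr7 by -0.17 (exact permutation p = 0.2, adjusted 0.45). As a description over the 6 libraries and 1952 listed genes, the genes most like Tlr7 in log2 level were Tlr6 (Pearson r = 0.990), Tlr8 (0.987), the transcription factor gene Runx1 (0.980), Serpinb10 (0.970) and Serpina3h (0.969). Within the groups, after removal of the group means, r was 0.94 for Tlr6, 0.94 for Tlr8 and 0.93 for Runx1. It was 0.79 for Serpinb10 and 0.79 for Serpina3h. Serpinb10 was counted from very few reads, with 0, 1.02 and 0 normalized counts in WT and 3.18, 7.15 and 6.38 in KO replicates 1 to 3. Tlr13 stood 46th for Tlr7, at r = 0.907 and 0.32 within the groups. All listed genes share the 6 libraries and were listed for a group difference, and the median r with Tlr7 was 0.52.

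The genes most like Tlr13 were others. They were Gpr171 (r = 0.991), Fcgr3 (0.990), Me1 (0.989), C3ar1 (0.989) and Hcar2 (0.989). Fcgr3 encodes an IgG receptor of macrophages and neutrophils, and C3ar1 a receptor that binds complement C3a. Fcgr3 had 734, 732 and 535 normalized counts in WT and 1078, 1254 and 1494 in KO replicates 1 to 3. C3ar1 had 343, 336 and 276 in WT and 597, 692 and 751 in KO. For Fcgr3 and C3ar1 KO replicate 3 was highest, as for Tlr13 and for 951 of the 1536 genes higher in KO. Over all listed genes the median r with Tlr13 was 0.72, and 207 genes had r over 0.9, against 55 for Tlr7.

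Some genes that serve endosomal receptors were listed beside them, and 4 of these 8 changed direction with TMM factors. Those factors were computed on the listed genes alone, so the turn does not show which direction is right. Of 23 genes of folding, trafficking, processing and co-receptors, 8 were listed. All 8 were higher with the deposited size factors (median log2 fold change 0.59), beside 1536 of all 2195 listed genes. With TMM factors 4 of the 8 were higher and 4 lower (median 0.02). Limma had 6 of them at an unadjusted p under 0.05, beside 1207 of all 2195 listed genes, of which 879 were higher in KO. At an adjusted p under 0.05 limma had 0 of them. EdgeR with TMM factors had 0 at an unadjusted p under 0.05. Slc15a3, a transporter of the endosomal membrane, had 383, 259 and 200 normalized counts in WT and 465, 666 and 601 in KO replicates 1 to 3 (log2 fold change 1.07, standard error 0.32, limma adjusted p = 0.485). Lgmn, the asparagine endopeptidase that cuts Tlr7, had 3375, 2332 and 2029 in WT and 4844, 3845 and 7106 in KO (log2 fold change 1.02, standard error 0.29, limma adjusted p = 0.478). The groups did not overlap for either gene.

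The cathepsins, lysosomal proteases that also cut endosomal receptors, were listed too. Ctsb had a log2 fold change of 0.48 and Ctss of 0.41, both with every KO library above every WT library, and both turned with TMM factors (-0.11 and -0.15). Ctsk (log2 fold change 1.18) and Ctsl (0.68) each had 2 of 3 KO libraries above the WT libraries. Rnase4, a secreted ribonuclease (0.50), and Grn, which encodes progranulin, a lysosomal protein (0.33), did not overlap between the groups and also turned (-0.10 and -0.25). Unc93b1, the escort of Tlr7 and Tlr13, was among the 15 not listed.

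Of 32 genes of Myd88 signalling, 4 were listed and 28, Myd88 among them, were not. Irak3, an inhibitor of this pathway in macrophages, had 189, 177 and 141 normalized counts in WT and 293, 313 and 475 in KO replicates 1 to 3 (log2 fold change 1.07, standard error 0.31, limma adjusted p = 0.481). Its KO libraries all lay above its WT libraries. Irf7, the interferon regulatory factor downstream of Tlr7, had 2001, 1091 and 1283 in WT and 5127, 4812 and 1667 in KO (log2 fold change 1.29, standard error 0.45, limma adjusted p = 0.576). KO replicate 3, the library with the highest Tlr13, was within the WT range for Irf7. Pik3ap1, an adaptor of PI3-kinase, had a log2 fold change of 0.57. Nfkbiz, a nuclear inhibitor-of-kappa-B protein induced by toll-like receptors, was lower in KO, with 2084, 3001 and 2895 in WT and 1641, 1906 and 1919 in KO (log2 fold change -0.53, standard error 0.22).

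Other sensors of nucleic acids were listed too, 8 of 24, with 7 higher in KO, beside 1536 of all 2195 listed genes, and 1 lower. Their median log2 fold change was 1.07, beside 0.79 over all listed genes. Every KO library lay above every WT library for 4 of the 8, beside 943 of all 2195 listed genes. Ifi204, a DNA sensor of the cytosol, had 161, 131 and 137 normalized counts in WT and 422, 490 and 256 in KO replicates 1 to 3 (log2 fold change 1.39, standard error 0.33, limma adjusted p = 0.392, DESeq2 adjusted p = 0.0149). Dhx58 (log2 fold change 1.05), a helicase that binds viral RNA, Ifi207 (0.87) and the inflammasome sensor Nlrp3 (1.09) also had every KO library above every WT library. The RNA sensors Oas2 (1.90), Oasl2 (1.10) and Oas3 (1.06), also counted among the interferon-stimulated genes below, were not above the WT libraries in KO replicate 3. Mavs, the mitochondrial adaptor of cytosolic RNA helicases, was lower (-0.53).

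**Figure D2:**
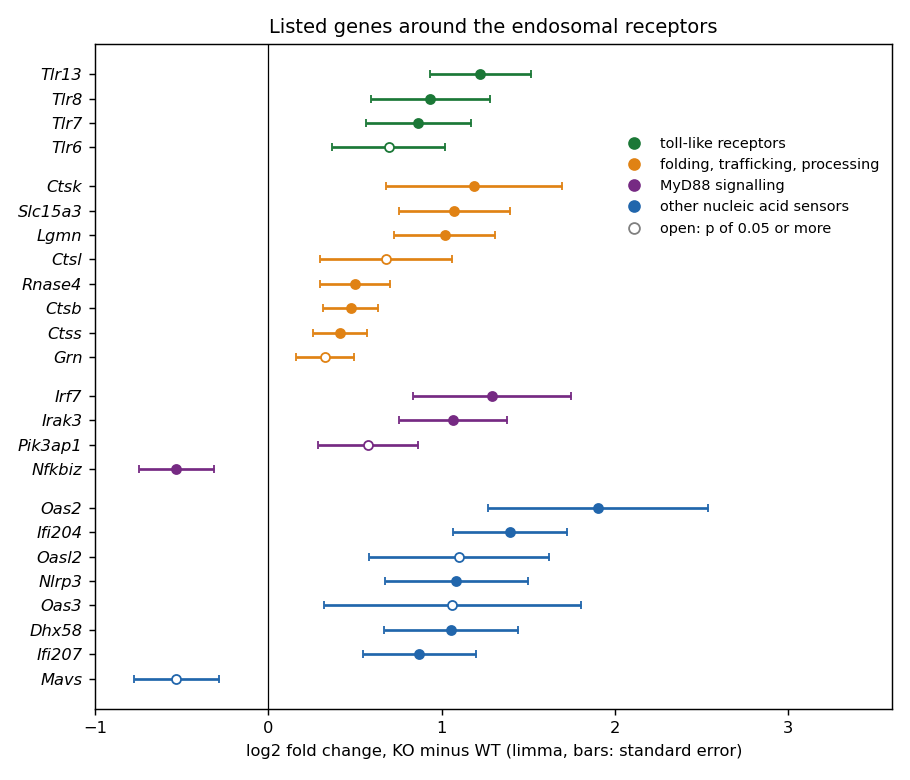
Log2 fold change, KO minus WT, by limma (horizontal axis) of the listed genes of 4 lists; bars are standard errors and open circles have an unadjusted p of 0.05 or more. Tlr13 (1.22) and Tlr7 (0.86) lie among listed genes that are mostly to the right of 0, with Nfkbiz and Mavs to its left at -0.53.

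Interferon-stimulated genes, which Tlr7 signalling can induce, differed from the receptors over the KO libraries. Of 23 such genes 17 were listed, all higher in KO (beside 1536 of all 2195 listed genes), with a median log2 fold change of 1.30. Their mean log2 level stood 1.99, 2.02 and 0.01 above the WT mean in KO replicates 1 to 3, whereas Tlr7 stood at 0.72, 1.14 and 0.73. In KO replicate 3, 12 of the 17 were within or below the WT range, and neither receptor was. Every KO library lay above every WT library for 5 of the 17, beside 943 of all 2195 listed genes. Ifit1, an antiviral RNA-binding protein, had 371, 296 and 328 normalized counts in WT and 1980, 1310 and 428 in KO. Of 11 interferon genes 0 were listed. The mean log2 level of the 12 listed macrophage and monocyte markers stood 0.61, 0.79 and 1.16 above the WT mean in KO replicates 1 to 3. Replicate 3 was also highest for Tlr13, for the 9 listed neutrophil markers (1.67, 2.52 and 3.02) and for 951 of the 1536 genes higher in KO. The difference between these patterns was not tested.

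**Figure D3:**
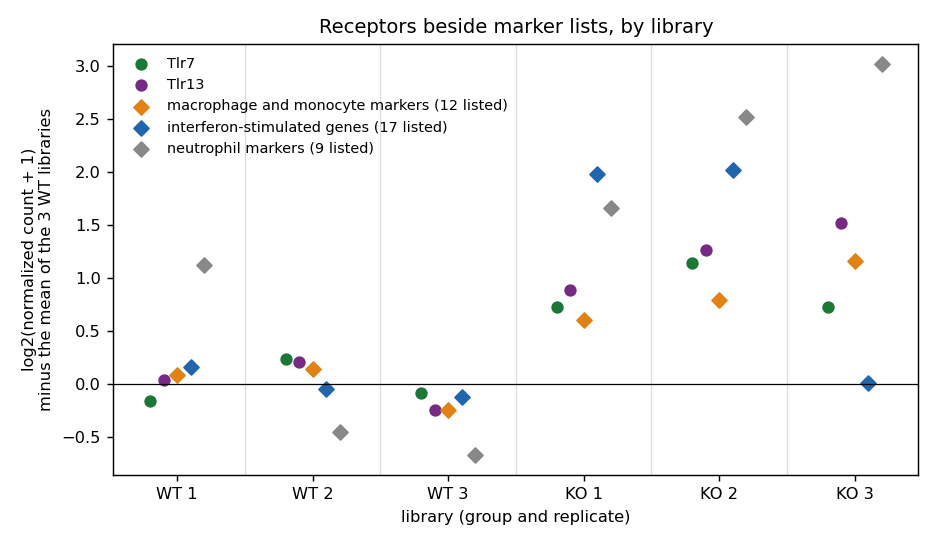
Log2 level minus the WT mean (vertical axis) in each of 6 libraries for Tlr13 and Tlr7 and for the mean of the listed genes of other lists. In KO replicate 3 Tlr13 stands at 1.52 and Tlr7 at 0.73, while the interferon-stimulated genes stand at 0.01.

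Markers of the cells known to carry these receptors moved with them in part. Of 20 macrophage and monocyte markers, 12 were listed, all higher in KO, beside 1536 of all 2195 listed genes. Their median log2 fold change was 0.77, close to the 0.79 over all listed genes. With TMM factors these medians were 0.25 and 0.22. With TMM factors 11 of the 12 were higher, Csf1r being lower. The summed level of the 12 was 9286 to 11549 normalized counts in WT and 15118 to 22122 in KO libraries. Of 13 markers of plasmacytoid dendritic cells, 4 were listed, with Bst2 higher and Spib, Klk1 and Ly6d lower, and the defining markers Siglech and Ccr9 were not listed. The summed level of those 4 was 5251 to 8235 in WT and 4400 to 6857 in KO, and Spib, Klk1 and Ly6d are made by other cells of the colon too. Both listed markers of B cells, Ms4a1 and Fcer2a, were lower in KO, as were 659 of all 2195 listed genes. The sum of these B cell markers was 524 to 645 in WT and 72.1 to 469 in KO. The 3 listed markers of conventional dendritic cells, Xcr1, Cd209a and Mgl2, were also lower, with a sum of 165 to 270 in WT and 69.3 to 105 in KO.

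Markers of other cells of the tissue also differed between the groups. The 9 listed neutrophil markers of 16 were all higher, beside 1536 of all 2195 listed genes. The sum of the 9 was 778 to 1976 in WT and 3310 to 8311 in KO. Much of it came from Lcn2, with 592, 252 and 264 normalized counts in WT and 1606, 1427 and 3603 in KO replicates 1 to 3. Of 18 markers of the colonic epithelium 2 were listed, Fcgbp and Aqp8, both lower. Fcgbp, a protein of goblet cell mucus, had 69692 ± 10049 (SD, n = 3) normalized counts in WT and 32977 ± 7482 (SD, n = 3) in KO. Gab1 was not listed, and its loss could not be checked. The part of these cell types in the levels of Tlr7 and Tlr13 was not tested.

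Set against the macrophage and monocyte markers of the same library, the group means of Tlr7 lay close together and those of Tlr13 lay apart. The log2 level of Tlr7 minus the mean of the 12 listed markers was -2.59, -2.25 and -2.18 in WT and -2.23, -1.99 and -2.77 in KO replicates 1 to 3. The group means were -2.34 ± 0.22 (SD, n = 3) and -2.33 ± 0.40 (SD, n = 3), a difference of 0.01. For Tlr13 the values were -1.77, -1.65 and -1.72 in WT and -1.43, -1.24 and -1.36 in KO, a difference of 0.37 between groups that did not overlap. The result turned on the marker chosen. Of these markers Itgam encodes CD11b, which the paper also used, together with Ly6G, to gate neutrophils. Against Itgam alone the difference was -0.85 for Tlr7 and -0.49 for Tlr13, against Fcgr1 -0.45 and -0.10, against Fcgr3 -0.07 and 0.29, against C1qa 0.12 and 0.48, and against Csf1r, the receptor that macrophages need to survive, 0.50 and 0.85. Against the 9 neutrophil markers it was -1.54 for Tlr7 and -1.18 for Tlr13. These ratios are descriptions over genes that were themselves listed for a group difference.

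**Figure D4:**
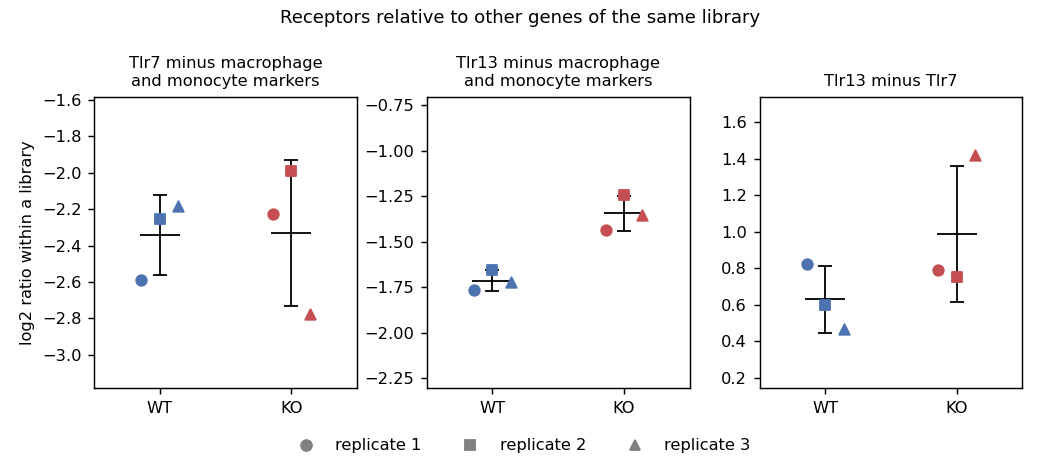
Within-library log2 ratios (vertical axes) in 3 WT and 3 KO libraries, of Tlr13 to Tlr7 and of each receptor to the mean of the 12 listed macrophage and monocyte markers; points are libraries and bars are group means with SD. KO replicate 3 stands apart in the ratio of Tlr13 to Tlr7 at 1.42, and the KO points of Tlr13 relative to the markers (-1.43 to -1.24) lie above its WT points (-1.77 to -1.65).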

How the data were processed

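Colon libraries were compared as labelled, 3 KO against 3 WT. Per the labels, the authors aligned reads with HISAT2 2.0.5 and counted them with featureCounts 1.5.0-p3. The submitters' notes name the build hg18, but 2117 of the 2195 gene coordinates equal those of GENCODE M21 on mouse GRCm38. The authors deposited a signal for each gene (its count over the size factor of the library), with group means, log2 fold changes and p-values. Those fold changes and p-values were not reported here. The deposited p-values and adjusted p-values served only to find the listing rule (unadjusted p under 0.05 for all 2195 genes) and the number of genes adjusted over (16716).

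The test was limma 3.58.1 (R 4.3.3) with a trend on log2 values (pseudocount 1), adjusted by Benjamini-Hochberg over 16716 genes. All 3 tools estimated the spread on the listed genes alone. In all 6 libraries 100% of values came out as whole reads within 0.01, and these reads went, with the deposited size factors, into DESeq2 1.42.0 and the quasi-likelihood test of edgeR 4.0.16. Reads of the listed genes summed to between 1957437 and 2787670 per library, and the whole depth is unknown. Levels per kb used the deposited gene length. Transcripts were aligned with BLAST 2.17.0. Fits were tested on simulated data. Both receptors and all gene lists were chosen with earlier results of these data known. Genes named are the receptors, other listed toll-like receptors, up to 8 members of each list by limma p, and the 5 genes most correlated with each receptor, leaving out predicted, RIKEN and immunoglobulin or T cell receptor segment genes. Of the 24 genes of other sensors and related proteins, 23 were found in the annotation. Of 6 sex-linked markers and 10 T cell markers, 0 and 1 (Il7r, higher) were listed. Alternatives were a pseudocount of 0.1, leaving out genes with a mean under 10, each library left out, the replicate block, edgeR, DESeq2, TMM factors and adjustment over the table alone.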

Additional observations from a re-analysis of the deposited data

How the results depend on the processing

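Tlr13 kept its direction and an unadjusted p under 0.05 in every alternative run, with log2 fold changes of 1.08 to 1.39 when 1 library was left out and 0.66 with TMM factors in edgeR. Tlr7 kept its direction, with 0.73 to 0.98 when 1 library was left out, but not its p: it was 0.05 or more in 3 of those 6 fits (without WT replicate 1, WT replicate 3 or KO replicate 2), and also with TMM factors in edgeR, at a log2 fold change of 0.31. TMM factors, computed on the listed genes alone, moved the median log2 fold change by -0.58, turned Ctsb, Ctss, Rnase4, Grn and Csf1r, and left 282 genes higher in KO at an unadjusted edgeR p under 0.05 against 894 with the deposited factors (limma 879). Genes past that p numbered 537 to 1524 when 1 library was left out, against 1207, and 601 without WT replicate 2, 537 without WT replicate 3, 731 without KO replicate 1 and 713 without KO replicate 3. Of these the genes higher in KO numbered 394 to 1108, with 433, 394, 552 and 487 without the same libraries. The ratio of Tlr13 to Tlr7 differed by 0.14 to 0.48 when 1 library was left out. Adjusted over the table alone, limma's p was 0.0515 for Tlr13 and 0.0754 for Tlr7. Same-numbered libraries deviated together with r of 0.20, 0.30 and -0.14, so the numbers were not taken as pairs. With the replicate block limma's unadjusted p was 0.0393 for Tlr7 and 0.0083 for Tlr13 at log2 fold changes of 0.86 and 1.22, 1266 genes passed 0.05, and the ratio differed by 0.36 (exact sign-flip permutation p = 0.5, an alternative added after the values were seen). Reads of 104 to 569 per receptor and library, and 3 libraries a group, limit the precision.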

Other observations

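Both receptors and Tlr8 are X-linked, and the labels do not give the sex of the mice. Of the 65 X-linked genes listed, 54 were higher in KO colons. Of the 2195 genes listed, 1536 were higher. Of 6 sex-linked marker genes 0 were listed, while 1 other gene on chromosome Y was listed.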
